A study of Arabidopsis thaliana with 4 samples.

Results

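Transcripts that were modestly but separately higher 5 h after induction of the senescence regulator ORS1 are described here: 120 of 19883 tested probe sets of the ATH1 array, on which the lowest value after dexamethasone (DEX) exceeded the highest value after mock treatment by at least 0.585 and by under 1 on the log2 scale, that is, by 1.5-fold to under 2-fold. Symbols of several families (calmodulin-like, WRKY, GH3, cytochrome P450, UGT, GST, ALDH, TBL, expansin, XTH and PDF genes) and 7 single genes were left out by the same rule, which took 6 probe sets from the 126 in that band. The values that chose the probe sets are those of the DEX and mock comparison itself, on all 4 arrays. Differences between the groups are therefore given as a description, without a test, and no other arrays were there to repeat them.

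The samples were whole rosettes of 46-day-old Arabidopsis thaliana of accession C24 that carried an inducible ORS1 overexpression construct. In the DEX group (2 arrays) the rosettes were sprayed with 30 µM DEX, and in the mock group (2 arrays) with 0.05% ethanol; both were harvested after 5 h. Every plant carried the construct and no plant without it was sprayed, so effects of DEX and of ORS1 cannot be told apart. ORS1 is not among the genes paired with a probe set in the annotation used here, so its own level was not analysed here. The labels give neither the promoter system, nor the number of lines, nor the plants behind each array, and the arrays are called biological replicates. In a whole rosette, more transcript per cell and more cells of a type that holds it cannot be told apart.

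ORS1 belongs to the NAC family of plant transcription factors, several of which promote or delay the ageing of leaves. Leaf senescence is an ordered breakdown of leaf cells in which nutrients are moved to growing parts, and its onset shares many transcripts with the responses to pathogens, wounding and oxidative stress. Those responses include glutaredoxins and peroxidases that handle reactive oxygen, chitinases and lectins secreted towards microbes, short peptides perceived by receptors at the cell surface, intracellular receptors with a Toll/interleukin receptor (TIR) domain, and calcium-binding proteins that relay the first signals.

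Of the 120 probe sets, 63 were paired with 1 gene in the platform annotation, 2 with several genes and 55 were not listed there. The share not listed was 45.8%, beside 40.7% of all tested probe sets. The 63 fell into 7 groups by known role (48 genes) and a remainder of 15 genes for which no role is given. The largest groups were enzymes of small-molecule metabolism (12 genes), secreted, wall and membrane proteins of defence (10) and immune receptors, calcium-binding and other signalling proteins (8). Genes of transcription and protein turnover numbered 6, redox genes 5, genes of salt, dehydration and metal responses 4 and peptide precursors 3. These role groups were drawn up with the values in view and carry no test.

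All 4 arrays covered a like range of log2 values, from 2.59 to 13.62, with medians of 6.51 to 6.55. The 10 tested markers of leaf photosynthesis, among them RCA and LHCB4.1, had array medians of 12.39 (mock replicate 1) to 12.65 (mock replicate 2), and none of the 10 was under 10.87 on any array. Of markers of other cells, 2 of 13 root, 1 of 12 guard cell and 1 of 8 pollen genes were tested, and none of the 13 floral and 12 vascular genes; the 4 had changes of -0.47 to 0.016. The arrays of the mock pair lay farther apart (SD of their difference over the tested probe sets 0.37) than those of the DEX pair (0.21).

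The name of 1.5-fold to 2-fold risers holds for the distance between the nearest arrays of the groups, not for the group means. Mean DEX minus mean mock values ran from 0.61 to 1.56 with a median of 0.92 (1.53-fold to 2.95-fold, median 1.89-fold), against a median of -0.012 over all tested probe sets. For 51 of the 120 the means lay 2-fold or more apart, where the background is 0.583% of tested probe sets. Nothing is read from that count, because the rule chose on the same values and so raised it. The limma fit over all tested probe sets called 9 of the 120 higher at an adjusted p under 0.05, beside 0.246% of tested probe sets (0.201% were called lower), and that count too is only a description. It came to 2 of the 63 with 1 gene, AT4G39670 and AT1G10585, each at an adjusted p of 0.040 (limma). Of these 2, AT1G10585 passed the filter on its DEX arrays alone. Neither gene was called with no filter, without an intensity trend (limma adjusted p = 0.091 and 0.12), with an unmoderated variance or without mock replicate 1 (limma adjusted p = 0.051 and 0.098). With 1 array left out, the remaining pair alone gives the spread, so the calls of those fits are not counted. The median change of the 120 was then 0.92 and 0.94 without DEX replicate 1 or 2. It was 0.80 and 0.90 without mock replicate 1 or 2. The band itself holds 0.634% of tested probe sets, and 42 probe sets (0.211%) lay above it. Applied to 3 arrays, the rule took 183 and 177 probe sets without DEX replicate 1 or 2, 204 without mock replicate 1 and 909 without mock replicate 2, so the count moved most without mock replicate 2.

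**Figure D1:**
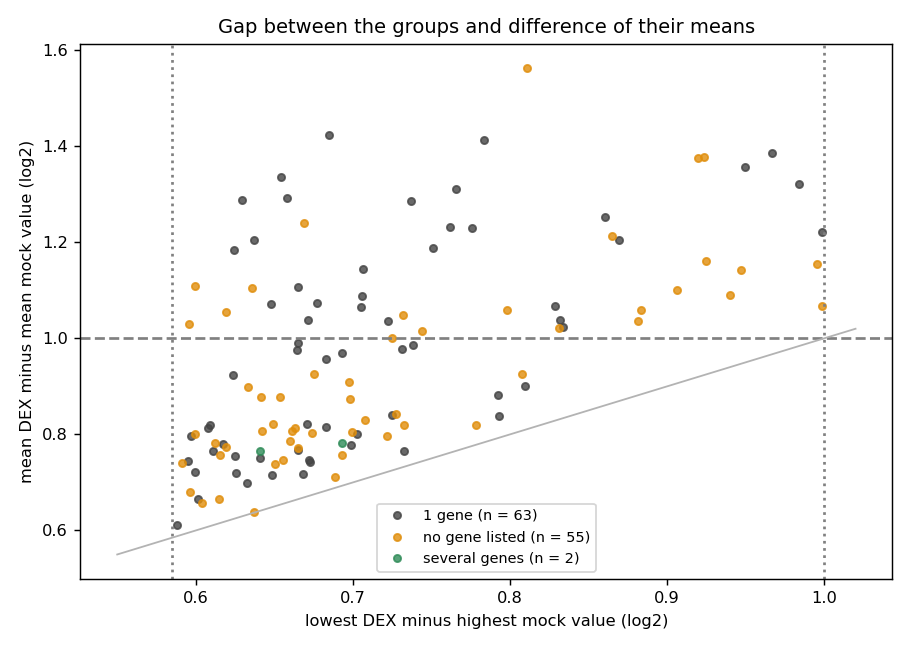
Mean DEX minus mean mock value (y, log2) against lowest DEX minus highest mock value (x, log2) for the 120 probe sets, each a point coloured by the number of genes it is paired with. Dotted lines mark the limits of 0.585 and 1, the dashed line a 2-fold difference of means and the grey line equal values; 51 points lie on or above the dashed line.

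At the upper limit, the last genes taken were AT5G03350 with a gap of 0.998, AT4G12490 with 0.98 and AT1G26380 with 0.97. The first left out were AT2G41730 with 1.03, AT4G16260 with 1.09 and AT5G52760 with 1.16. At the lower limit AT3G09405 (0.59), AT2G38240 (0.60) and AT1G10340 (0.60) were the last inside. AT1G67330, AT3G47540 and AT1G22890 were the first outside, each with a gap of 0.58, so the lower limit runs through a continuum: AT1G22890, outside, had a mean difference of 1.12, larger than the 0.61 of AT3G09405, inside.

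**Figure D2:**
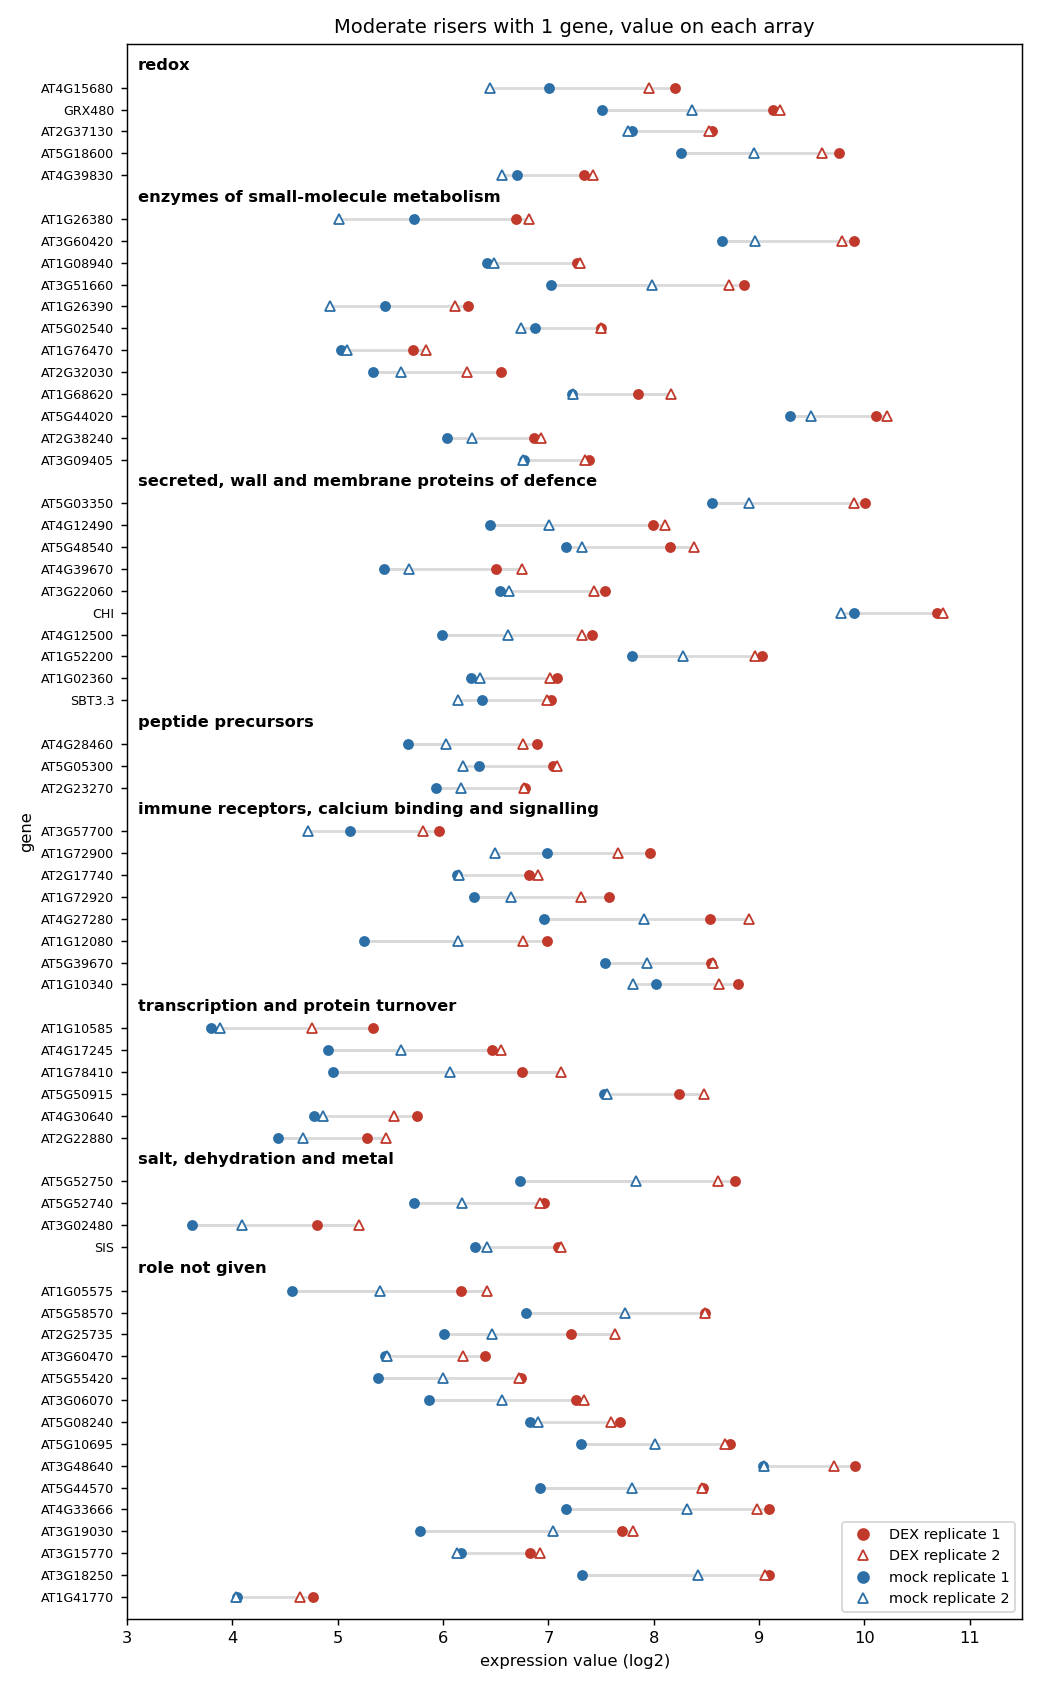
Log2 expression value (x) on each of the 4 arrays for the 63 moderate risers with 1 gene (y), grouped by role and, within a group, ordered by the gap between the groups. Red symbols are DEX and blue symbols mock, filled circles replicate 1 and open triangles replicate 2; on every row both red symbols lie to the right of both blue ones, and the blue pair is often the wider.

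Redox genes centred on small thiol oxidoreductases. The 5 genes encode CC-type glutaredoxins, a plant class that binds TGA transcription factors, a class III peroxidase and an ascorbate oxidase-like copper protein. GRX480 (ROXY19), the glutaredoxin known to be induced by salicylic acid and to restrain jasmonate-responsive genes, stood at 9.14 and 9.20 after DEX and at 7.51 and 8.36 after mock. Its DEX arrays were almost level while mock replicate 1 lay well under mock replicate 2, and the difference of means was 1.23 ± 0.28 (SE from the limma fit, 2 arrays per group, as for the others below) or 2.35-fold. AT4G15680, another glutaredoxin of this class, read 8.20 and 7.95 after DEX against 7.002 and 6.44 after mock, a change of 1.36 ± 0.23 (SE); here mock replicate 2 was the lower one. The third, AT5G18600, had values of 9.75 and 9.60 after DEX and 8.26 and 8.95 after mock. The peroxidase AT2G37130 was the most even of the group: 8.56 and 8.52 after DEX and 7.79 and 7.76 after mock, a 1.70-fold difference with both pairs nearly level. For AT4G39830, the ascorbate oxidase-like gene, the change was 0.75 ± 0.16 (SE).

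Beyond these, 18 genes of a wider redox list (peroxiredoxins, glutaredoxins, thioredoxins, methionine sulfoxide reductases and NAD(P)H dehydrogenases, by symbol) were tested, GRX480 among them. Of the 18, 17 had a positive change, 1 was called higher in the limma fit (MSRB9) and 0 lower (3 and 1 at an unadjusted p under 0.05, which 4.73% of all tested probe sets met in the higher and 4.05% in the lower direction). Over all tested probe sets 47.2% had a positive change. In GRXC2, TRXF2, MSRB5 and NDB3 mock replicate 2 lay above both DEX arrays, so their positive change rests on mock replicate 1. In the other positive genes of the list at least 1 DEX array lay above both mock arrays. The count of 17 therefore depends in part on the uneven mock pair. The median change of the 18 was 0.18, beside -0.012 over all tested probe sets. The 1 negative change was that of PRXR1, a peroxidase gene, at -0.45. ROXY1 and ROXY2, CC-type glutaredoxins of flower development, had changes of 0.18 and 0.077, and GRXC1 and GRXC2, glutaredoxins of another class, 0.33 and 0.14, beside 1.23 for GRX480.

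Enzymes of small-molecule metabolism were led by oxidases of the berberine bridge enzyme-like family, flavoproteins that oxidise alcohols and sugars and, in the case of AT1G26380, take part in making an indole-derived cyanogenic defence compound. AT1G26380 read 6.70 and 6.82 after DEX and 5.73 and 5.02 after mock, with a change of 1.39 ± 0.23 (SE), or 2.61-fold. Its neighbour on the chromosome, AT1G26390, read 6.24 and 6.11 after DEX and 5.44 and 4.93 after mock. In both genes mock replicate 2 was the lower mock array, the opposite of most genes here. A probe set shared by several genes, which is not named, lay in the same band at 5.05 and 5.005 after DEX and 4.31 and 4.18 after mock.

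Genes of the phosphoglycerate mutase family, enzymes that move or remove phosphate groups, came next. AT3G60420 stood at 9.90 and 9.79 after DEX and 8.65 and 8.96 after mock (2.06-fold). AT1G08940 had values of 7.27 and 7.29 after DEX and 6.41 and 6.48 after mock, both pairs nearly level. AT3G51660, which encodes a protein like the animal cytokine MIF, a tautomerase, was higher by 1.29 ± 0.30 (SE), with an uneven mock pair (7.02 and 7.98).

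The remaining 7 enzymes had smaller gaps, of 0.59 to 0.63. AT2G38240, a 2-oxoglutarate-dependent oxygenase that hydroxylates and so inactivates jasmonic acid, read 6.87 and 6.93 after DEX and 6.04 and 6.27 after mock. AT5G44020, an acid phosphatase of the HAD type, read 10.11 and 10.21 against 9.29 and 9.50. The carboxylesterase AT1G68620, the short-chain dehydrogenase AT5G02540 and AT1G76470, like cinnamoyl-CoA reductase, had changes of 0.78, 0.70 and 0.72. AT2G32030, a GNAT-type acyltransferase, was at 0.92 and the pectin acetylesterase AT3G09405, which trims acetyl groups from wall pectin, at 0.61, the smallest mean difference of all 120. Over the 12 enzymes the median change was 0.81 (1.75-fold), and 3 of 12 had means 2-fold or more apart.

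Genes grouped here as secreted, wall and membrane proteins of defence had the largest gaps (median 0.80, beside 0.68 over the 120). AT5G03350, a legume-type lectin known to respond to salicylic acid, stood at 10.003 and 9.90 after DEX and 8.56 and 8.91 after mock, a 2.33-fold difference. CHI, a chitinase that cuts the chitin of fungal walls, read 10.69 and 10.75 after DEX and 9.90 and 9.78 after mock, with both pairs close together and a change of 0.88 ± 0.19 (SE). Another chitinase gene, AT1G02360, read 7.09 and 7.02 after DEX and 6.26 and 6.35 after mock. Probe sets differ in how strongly they bind their target, so signals of different genes do not rank their transcripts, here or elsewhere.

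Lipid transfer-type proteins, small cysteine-rich proteins of the cell wall, were represented by AT4G12490 and AT4G12500, which lie with 1 gene between them. AT4G12490 read 7.99 and 8.10 after DEX and 6.44 and 7.01 after mock (2.50-fold), and AT4G12500 7.41 and 7.32 and 5.99 and 6.61. On both, mock replicate 1 was the lowest array by more than 0.5. 

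AT5G48540 and AT3G22060 encode secreted proteins with DUF26 domains, the cysteine-rich module also found outside the cell in one family of receptor kinases. AT5G48540 stood at 8.16 and 8.38 after DEX and 7.17 and 7.32 after mock. AT3G22060 stood at 7.53 and 7.44 and 6.54 and 6.63, so that each pair differed by under 0.1 while the groups lay 0.81 apart at their nearest. AT4G39670, of the glycolipid transfer protein family, read 6.50 and 6.75 after DEX and 5.44 and 5.68 after mock and was the 1 gene of this group called by limma. SBT3.3, a subtilisin-like protease of the extracellular space linked to immune priming, read 7.03 and 6.99 after DEX and 6.37 and 6.14 after mock, and AT1G52200, a PLAC8-type membrane protein, was higher by 0.96 ± 0.22 (SE).

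By symbol, 27 tested genes fell in a wider pathogen defence list. Its prefixes also take in ALDH genes, all of which had negative changes (-0.32 to -0.015) and lower the figures of the list. In the whole list 10 of 27 changes were positive, beside 47.2% of all tested probe sets, and the median was -0.049. Limma called 0 higher and 1 lower (JAL23, at -1.82). At a limma unadjusted p under 0.05 there were 3 higher and 3 lower, beside the same 4.73% and 4.05%. CHI had the highest positive change of that list. CHIL, which entered the list only because its symbol starts with the same letters, had -0.35. In the list of protein turnover, 40 of 67 changes were positive, limma called 0 in either direction (6 higher and 3 lower at an unadjusted p under 0.05, beside 4.73% and 4.05% of all tested) and the median was 0.053. In some positive genes, among them ATG8C, ATG8D, UBC18 and UBC29, mock replicate 2 lay above both DEX arrays. In others, such as UBP23 and UBP26, mock replicate 1 did. The count of 40 therefore depends in part on the uneven mock pair. The prefixes of this list also take in genes of other kinds, such as BCAT4 and ATGSTF13. SBT3.3 had the highest change there too, followed by another subtilase, SBT3.5, at 0.62 and the U-box ubiquitin ligase PUB24 at 0.61. In the other 14 functional lists, of 1 to 35 tested genes each, no gene was a moderate riser. The band holds 0.634% of all tested probe sets, so lists of this size would rarely hold a member, and nothing is read from the absence. The rule also fixed it in part: BGLU27, a gene of the secondary metabolism list with a gap of 0.82, lay in the band and was left out by name.

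Peptide precursors were a small group of 3 genes, each with a DEX pair closer together than its mock pair. AT4G28460 and AT2G23270 encode precursors of short secreted peptides of the PAMP-induced family, which amplify immune signalling when perceived at the cell surface, and AT5G05300 a precursor like that of IDA, the peptide of organ shedding. AT4G28460 read 6.89 and 6.76 after DEX and 5.67 and 6.03 after mock. AT2G23270 read 6.78 and 6.77 and 5.94 and 6.17, and AT5G05300 7.04 and 7.08 and 6.34 and 6.19. Changes ran from 0.72 to 0.98, and none of the 3 had means 2-fold apart.

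Among signalling proteins, the TIR-domain genes AT1G72900 and AT1G72920, of the class of intracellular immune receptors, lie with 1 gene between them. AT1G72900 stood at 7.96 and 7.66 after DEX and 6.98 and 6.49 after mock, and AT1G72920 at 7.58 and 7.31 and 6.29 and 6.65. The DEX pair was ordered the same way on both genes and the mock pair in opposite ways.

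Calcium-binding proteins numbered 3. AT4G27280, a small EF-hand protein, read 8.53 and 8.90 after DEX and 6.96 and 7.90 after mock, a change of 1.29 ± 0.31 (SE) that rests on mock values almost 1 unit apart. The EF-hand gene AT5G39670 read 8.54 and 8.57 and 7.54 and 7.93. AT1G12080, related to vacuolar calcium-binding proteins, read 6.99 and 6.76 and 5.25 and 6.14, again with mock replicate 1 far below. AT3G57700, a protein kinase, was at 0.97, AT1G10340, an ankyrin repeat protein, at 0.80, and AT2G17740, with the cysteine- and histidine-rich C1 domain, at 0.72; its mock arrays (6.13 and 6.15) and DEX arrays (6.82 and 6.90) were each within 0.1.

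Transcription and protein turnover included a pair of basic helix-loop-helix (bHLH) factors and a pair of VQ proteins, short partners of WRKY factors. The bHLH gene AT1G10585 stood at 5.33 and 4.75 after DEX and at 3.79 and 3.88 after mock. Both mock values were under the filter level of 4, where the values of GCRMA flatten, so its fold may be understated. Its mock spread (SD 0.064, beside 0.41 for the DEX pair) may be understated too, and the limma call uses that spread. The gene entered the test only through the DEX arrays. AT5G50915, the other bHLH gene, read 8.24 and 8.48 and 7.53 and 7.56. The VQ gene AT1G78410 had the largest mean difference of any of the 63 genes, 1.42 ± 0.32 (SE) (2.68-fold), on values of 6.75 and 7.12 after DEX and 4.96 and 6.07 after mock, with a wide mock pair: against mock replicate 2 alone the lowest DEX value was 0.68 higher. AT2G22880, the other VQ gene, read 5.27 and 5.45 and 4.44 and 4.67. AT4G17245, a RING-type protein of the class of ubiquitin ligases, read 6.46 and 6.55 and 4.91 and 5.60, and AT4G30640, with leucine-rich repeats of the RNI type, 5.75 and 5.53 and 4.77 and 4.86. On all 6 genes mock replicate 1 was below mock replicate 2.

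Salt, dehydration and metal genes were 4. SIS, named as salt-induced and serine-rich, had close pairs at 7.09 and 7.12 after DEX and 6.30 and 6.42 after mock. AT3G02480, a late embryogenesis abundant (LEA) protein of dehydrating tissue, was a dim probe set at 4.80 and 5.20 after DEX and 3.62 and 4.10 after mock, with 1 mock value under 4. AT5G52740 and AT5G52750 are adjacent genes for small proteins with a heavy-metal-associated domain. AT5G52740 read 6.95 and 6.92 after DEX and 5.72 and 6.18 after mock, and AT5G52750 8.77 and 8.61 and 6.73 and 7.83. The next gene in the row, AT5G52760, fell just outside the band, with 8.89 and 8.93 after DEX and 6.92 and 7.73 after mock.

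No role is given for 15 genes, and these had the widest mock pairs, with a median SD of 0.49 beside 0.16 over the 120. AT3G19030 read 7.70 and 7.80 after DEX and 5.78 and 7.05 after mock, AT4G33666 9.09 and 8.98 and 7.17 and 8.32, and AT3G18250 9.09 and 9.05 and 7.32 and 8.42. In each the DEX arrays lay within 0.12 of one another and mock replicate 1 more than 1 unit below mock replicate 2. AT3G48640 behaved otherwise, with mock values of 9.04 and 9.05 and DEX values of 9.91 and 9.72. AT1G41770, a dim probe set, read 4.76 and 4.64 and 4.04 and 4.04. The other 10 (AT1G05575, AT5G58570, AT2G25735, AT3G60470, AT5G55420, AT3G06070, AT5G08240, AT5G10695, AT5G44570 and AT3G15770) had changes of 0.72 to 1.31, and in 13 of the 15 genes mock replicate 1 was the lower mock array.

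The 55 probe sets with no listed gene had changes and levels that overlapped widely with those of the named ones. Their changes ran from 0.64 to 1.56 with a median of 0.88, beside 0.61 to 1.42 and 0.98 for the 63 with 1 gene. Limma called 6 of the 55 higher, beside 0.246% of all tested probe sets, and that count is only a description. On 1 of the 6 both mock values were under the filter level of 4. Of the 55, 1 had the largest mean difference of the 120, at 8.66 and 9.11 after DEX and 6.80 and 7.85 after mock. Another of the 55 had the highest mean signal, at 11.13 and 11.24 and 10.45 and 10.30. Of these 55, 33 had the lower mock value on replicate 1, a smaller share (60.0%) than among the 63 genes (76.2%); that difference was not tested.

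Spread within the groups was uneven, and in a way that the rule allows. The median SD of the 120 was 0.077 for the DEX pair and 0.16 for the mock pair, close to the 0.085 and 0.16 of all tested probe sets. The mock pair was the wider in 85 of 120 (70.8%), a share near the 68.3% of all tested probe sets. In 19 of the 120 the mock arrays differed from each other by more than the gap between the groups, and in none did the DEX arrays. Both pairs had an SD under 0.1 on 28 probe sets, 14 of them with 1 gene. For those 28 the mean difference and the gap are nearly the same number. The counts of 19 and 28 have no matching count over all tested probe sets here.

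Direction within the mock pair was lopsided. Mock replicate 1 lay below mock replicate 2 on 82 of the 120 (68.3%), beside 45.6% of all tested probe sets. Of 30 members whose mock arrays differed by more than 0.5, 26 had the lower value on replicate 1. The share over all tested probe sets with such a difference was not counted. On the DEX arrays replicate 1 was lower on 67 of 120 (55.8%; 48.9% of all tested), among them 29 of the 63 genes (46.0%) and 37 of the 55 probe sets with no listed gene (67.3%). The median replicate 1 difference, DEX minus mock, was 0.94 and the replicate 2 difference 0.80. Taking mock replicate 2 as the only mock array gave a median change of 0.80 in place of 0.92.

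**Figure D3:**
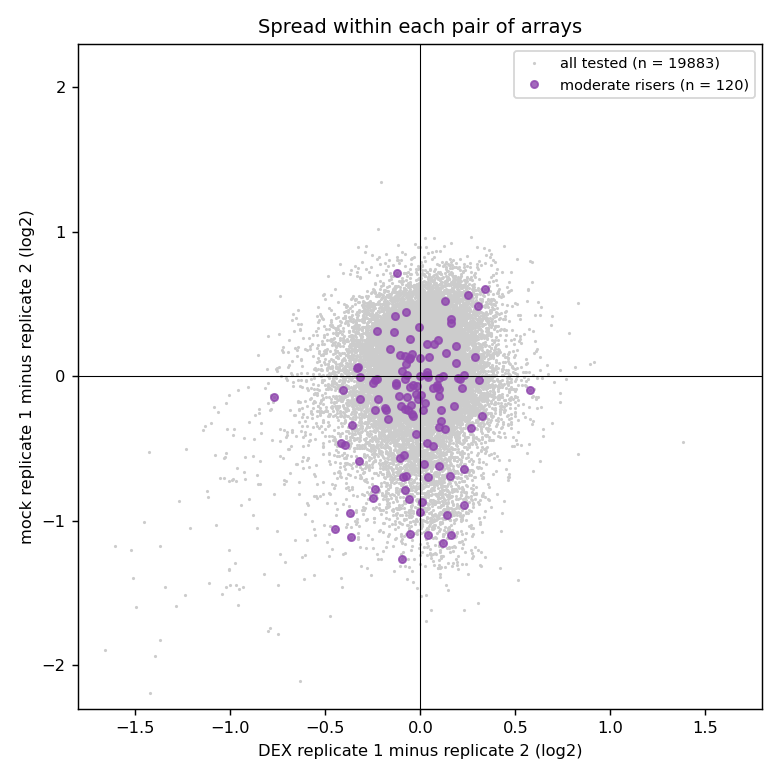
Difference between replicates 1 and 2 of the mock pair (y, log2) against that of the DEX pair (x, log2), for the 120 moderate risers (purple) over all 19883 tested probe sets (grey). The purple points spread mainly downward, with 82 of 120 below 0 on the y axis.

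Gene span moved with these values. The 62 moderate risers with a span in the RefSeq table had a median of 1260.5 bp (lowest 312, highest 3401), beside 2202 bp for the 11284 tested probe sets with a span. Of the 62, 37 (59.7%) belonged to the shortest of 5 equal groups of tested genes by span, 78 to 1371 bp, and 3 to the longest 2 groups together. Over all genes of the shortest group, mock replicate 1 minus replicate 2 had a median of -0.25 and the DEX minus mock change one of 0.10. In the longest group these medians were 0.27 and -0.083.

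With that trend of each array on span smoothed out, all 62 kept a positive change, from 0.57 to 1.34, and their median went from 0.98 to 0.88. The change became smaller for 51 of the 62. Their smallest gap was then 0.40; 47 stayed in the band, 1 moved above it and 14 below it. Mock replicate 1 remained the lower mock array in 37 of 62, from 48 before. The groups stayed apart on all 62 with the trend removed, while the band limits did not hold for 15. Because the 62 were chosen on these arrays for a gap of at least 0.585, that separation was likely beforehand. Nothing about the part of the trend is read from it. The trend has no known source in the sources used here, and its part in the choice of members with no listed gene was not tested.

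**Figure D4:**
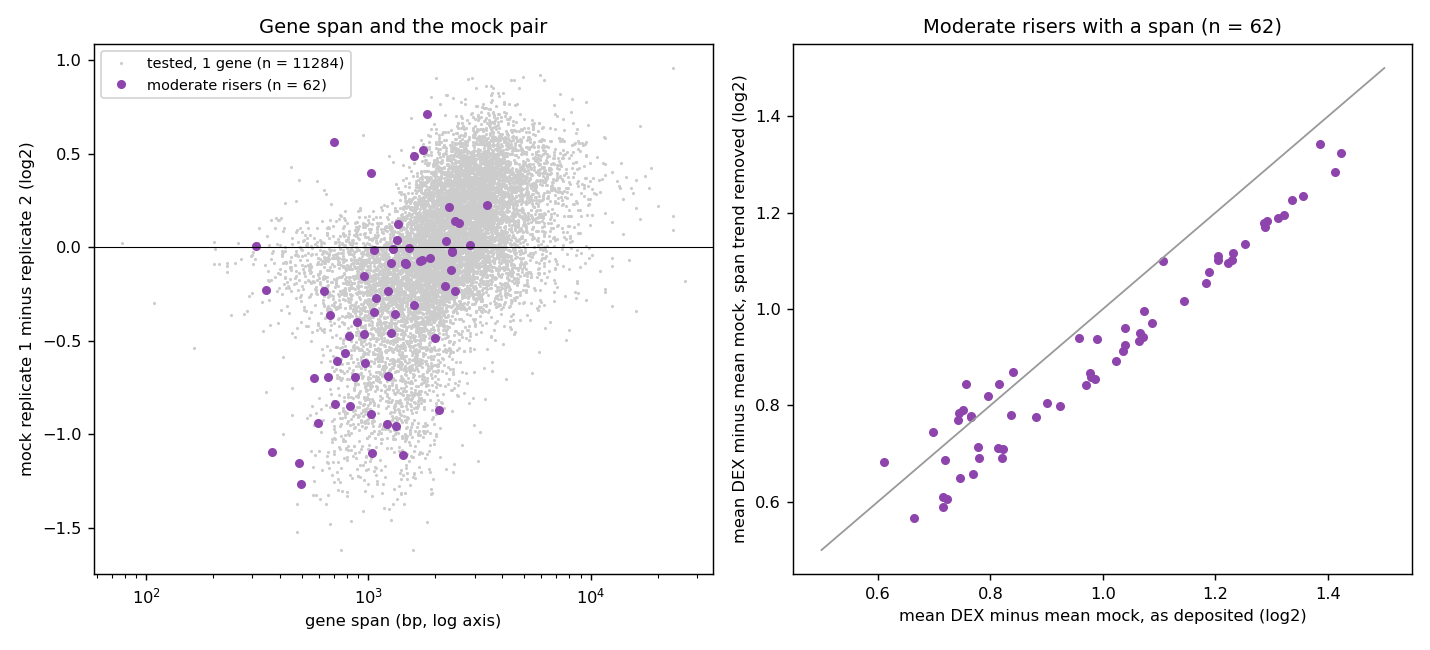
Left, mock replicate 1 minus replicate 2 (y, log2) against gene span (x, bp, log axis) for the 62 moderate risers with a span (purple) over 11284 tested probe sets with a span (grey). Right, mean DEX minus mean mock of the same 62 with the span trend removed (y, log2) against the deposited values (x, log2), with the line of equal values; 51 of 62 points lie under the line.

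Position was looked at through gene order alone. The moderate risers with 1 gene lay on all 5 chromosomes, from 0.461% of the tested genes of chromosome 2 to 0.611% of those of chromosome 4. Adjacent pairs were AT1G26380 with AT1G26390 and AT5G52740 with AT5G52750. A single gene lay between AT4G12490 and AT4G12500 and between AT1G72900 and AT1G72920, and 3 genes between AT3G60420 and AT3G60470. The first 4 of these pairs hold genes of one family each, and signal shared between their probe sets was not tested.

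Direct neighbours of the moderate risers mostly had small changes. Of 50 tested neighbours that were not moderate risers themselves, 31 had a positive change, the median was 0.067 and the range -0.36 to 1.58, and limma called 0 of them in either direction (5 higher and 0 lower at an unadjusted p under 0.05, beside 4.73% and 4.05% of all tested). The 2 largest changes belonged to genes of the same family as the member beside them: AT5G52760, above, and AT4G15690, a glutaredoxin gene next to AT4G15680, with values of 5.56 and 4.87 after DEX and 3.99 and 4.31 after mock and a gap of 0.56, just under the band. AT4G33660 and AT3G15760, beside AT4G33666 and AT3G15770, followed at 0.74 and 0.73. At the other end AT4G39840, beside AT4G39830, had -0.36.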

How the data were processed

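Expression was measured on 4 ATH1 arrays, 2 per group. The deposited values are log2 expression values per probe set; per the submitters' processing notes they come from GCRMA, whose version is not given in the sources used here, as no genome build is. The log2 scale was taken from GCRMA and from the range of the values. Nothing was normalized further. The 64 control probe sets and 2863 others that reached a log2 value of 4 on fewer than 2 arrays were left out. DEX was set against mock with limma 3.58.1 in R 4.3.3 (lmFit, eBayes with an intensity trend, no covariate, two-sided, Benjamini-Hochberg over 19883 probe sets, called under 0.05); SEs come from this fit. With 2 residual degrees of freedom, precision is limited by how few arrays there are. The arrays are called biological replicates with no count of plants, so p-values cover the spread between these samples only.

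Tested on simulated data with the means of the 19883 probe sets, the fit recovered 0% of 1.5-fold, 45.8% of 2-fold and 98.6% of 4-fold changes, with 5 false calls among 108. The simulated noise was equal in both groups and independent between probe sets. In the real arrays the mock pair was the wider (SD of the difference 0.37, beside 0.21 for the DEX pair) and differed with gene span. These rates may therefore not carry over to them. Gene names are those of the platform annotation, updated through the RefSeq table of TAIR10.1, which also gave gene span and order; coordinates are not printed. Of 63 single genes, 62 had a span. AT5G05300 had no entry under its gene ID and keeps the platform name. The span trend was removed per array with a smooth (span 0.3) of deviations from the mean of the 4 arrays. Members, lists and role groups were chosen with earlier results of these data known. Any member with 1 gene could be named; values on each array are given for the 12 largest gaps, the highest, lowest and most uneven genes, members of symbol lists, and others that a role group turns on. The last were added after their values were seen. Promoter sequences were not analysed here.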

Additional observations from a re-analysis of the deposited data

How the results depend on the processing

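The positive direction of the 63 genes is fixed by the rule, and all 63, or the 60 to 62 tested, kept it in each of the 15 alternative fits. Counts of calls did not hold. Against 9 of the 120 moderate risers called by limma, the count was 3 with no filter, 16 with a filter at 5, 17 with equal array medians, 33 with robust empirical Bayes, 56 at an adjusted p under 0.1, and 0 without an intensity trend or with an unmoderated variance (120 and 84 at an unadjusted p under 0.05). With the span trend removed 28 of 62 were called, beside 54 called higher of all 11284 tested probe sets with a span. With the same genes and the trend kept, a setting added after the data were seen, limma called 0 (62 at a limma unadjusted p under 0.05). The rule chose the members on this contrast, so these unadjusted counts are only a description. In the main limma fit 4.73% of all tested probe sets were higher at an unadjusted p under 0.05. That share was not counted without an intensity trend or among genes with a span. Higher calls among all tested probe sets numbered 39 of 22746 with no filter, 54 of 16504 with a filter at 5 and 58 of 19885 with equal array medians. Over all probe sets, against 49 higher and 40 lower, there were 27 and 24 without an intensity trend, 80 higher with robust empirical Bayes, 107 and 81 at 0.1, 0 and 0 with an unmoderated variance (1297 had an unadjusted p under 0.05), and 15 and 9 among genes with a span. AT4G39670 and AT1G10585, the called moderate risers with 1 gene, also lost the call among genes with a span and the trend kept (limma adjusted p = 0.068 for both). Leaving out 1 array gave 36 to 120 called moderate risers, and 112 to 1803 higher and 50 to 1388 lower probe sets. The rule took 55 genes with the span trend removed and 62 of the same genes without, 197 probe sets with a lower limit of 1.4-fold, 61 with 1.6-fold, 459 by the difference of means (69 of them among the 120), and 177 to 909 with 1 array left out. The median change of the 120 was 0.80 to 0.94 with 1 array left out. Equal numbers do not pair the arrays in the labels. Deviations of same-numbered arrays correlated at 0.11 across probe sets. With a replicate block 438 probe sets were called higher and 237 lower, and 114 of the 120 moderate risers. The cause of these shifts was not tested. Removing probe sets prone to cross-hybridisation or quantile normalization moved the counts by under 1.5-fold.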
